A study of Mus musculus with 21 samples.

Results

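The wound bed at day 6 was compared with the wound bed at day 2, over 6 of the 21 arrays of a series on mouse skin wounds. The 3 day 6 arrays and the 3 day 2 arrays were chosen by their titles, and all 1687 probes of the array were considered. Of these, 974 were bright enough to be tested. Every sample came from females of C57Bl/KS-db/+, 9 to 13 weeks old, which carry 1 mutant copy of the leptin receptor gene (db) in every group, controls included. A square of back skin with 1.5 cm sides had been cut out together with the panniculus carnosus, the thin muscle sheet under mouse skin, and the wound was covered with a transparent dressing. The series also holds the bed at day 15, the wound edge (a strip 2 mm wide around the wound) at days 2, 6 and 15, and unwounded skin, with 3 arrays each. The series' design text counts 3 animals per time point, and nothing says that each array had its own animal, so the p-values cover only the spread between these arrays, which may be technical. The wording of the bed labels names operation-day skin as well, but the titles say wound bed, and the titles were followed. Values are log2 signals, background-corrected and made equal in distribution between arrays, so they show which transcripts changed relative to the rest and not the total amount of RNA.

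The bed of an excised wound is filled in stages. In the first days clot and inflammatory cells dominate, with neutrophils early and macrophages after them. Later, fibroblasts and new vessels move in and form granulation tissue, which lays down collagen, and the proteoglycans of this matrix and of cell surfaces carry heparan sulfate, the sugar chain named in the series title. The labels do not say which stage each sample had reached. The probes carry catalogue numbers in place of gene names, and 3 of the 1687 could be matched to a gene symbol (Hpse, Fbln1 and Ndst3), so cell type markers could not be checked and most results below are described as groups of probes. In such pieces of tissue, a change in the number of cells of a type and a change of RNA per cell cannot be told apart.

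The 3 day 6 arrays were less alike than the 3 day 2 arrays. Across the 974 tested probes, the day 6 arrays correlated with each other at r of 0.903 (replicates 1 and 3), 0.801 (1 and 2) and 0.774 (2 and 3), and the day 2 arrays at 0.944, 0.904 and 0.857. Day 6 replicate 2 stood apart, and day 6 replicate 3 was closer to day 2 replicates 1, 2 and 3 (0.865, 0.879 and 0.808) than to day 6 replicate 2. Probes on an array share its hybridisation and are not independent. The median SD over the 3 arrays was 0.60 at day 6 and 0.33 at day 2, and it was larger at day 6 in 742 of the 974 probes. Day 6 replicates 2 and 3, called the dim day 6 arrays below for their few bright probes, had the lowest counts of probes above the blank spots: 775, 547 and 487 probes were brighter than 95% of the blank spots on day 6 replicates 1, 2 and 3, and 832, 756 and 882 on day 2 replicates 1, 2 and 3. Of the blank spots, 16.5%, 25.6% and 34.1% were brighter than the median probe at day 6, and 5.79%, 9.45% and 3.05% at day 2. The median ratio of signal to local background did not follow this order, at 1.66, 1.45 and 2.18 on the day 6 replicates and 1.76, 1.86 and 2.17 on the day 2 replicates. The part of these differences in the results was not tested, and counts without these arrays are given below. No pair of arrays in these groups was a repeat of the same array, since the closest pair differed by a median of 2.55 times the spot error, where 0.674 would come from equal arrays.

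Between day 2 and day 6 a set of transcripts rose in the bed and another set fell. Which of the sets was larger depended on the scaling, as given below. Of the 974 tested probes, 63 were called at a limma adjusted p below 0.05, which is 6.47% of them. Of these, 25 were higher at day 6 (2.57%) and 38 were lower (3.9%). The called rises had a median of 1.88 on the log2 scale and ran from 1.23 to 3.83. The called falls had a median of -1.77 and ran from -1.03 to -4.04. Over all 974 probes the median absolute difference was 0.52, and 239 probes (24.5%) had an unadjusted p below 0.05. The 3 day 6 arrays did not overlap the 3 day 2 arrays in 261 of the 974 probes (26.8%), 125 of them higher at day 6 and 136 lower. Among the 63 called probes the arrays did not overlap in 60, which the call itself largely requires. Both bed groups had 1 array of scan day 2 and 2 arrays of scan day 3, as the image names show. With scan day as a block 64 probes were called (26 higher, 38 lower), and 57 of them were among the 63. The median change of the called rises was 1.94 on scan day 2 and 1.72 on scan day 3, and that of the called falls was -1.70 and -1.78. The same arrays gave the calls, which favours changes of the called sign and size on both scan days, so these medians are descriptions.

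The balance of rises and falls depended on how the arrays were scaled. Scaling each array to its 75th percentile gave 28 rises and 24 falls. Taking that percentile over the probes bright on all arrays gave 29 rises and 20 falls. Scaling to the median gave 17 rises and 55 falls. That percentile over the bright probes moved the median difference of all probes to 0.26, and the median scale moved it to -0.21, against -0.05 as reported. When the spread was taken from the 6 bed arrays alone, 14 probes were called (6 higher, 8 lower), 13 of them among the 63. Leaving out 1 array changed the count by more than 1.5 times in 5 of 6 cases. It was 31, 33 and 99 without day 6 replicate 1, 2 and 3, and 34, 38 and 44 without day 2 replicate 1, 2 and 3. In all 6 of these fits 19 of the 63 probes were called, 8 of them higher and 11 lower. Without both dim day 6 arrays, where the lone day 6 array was assumed to vary like the other groups, 12 were called.

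**Figure D1:**
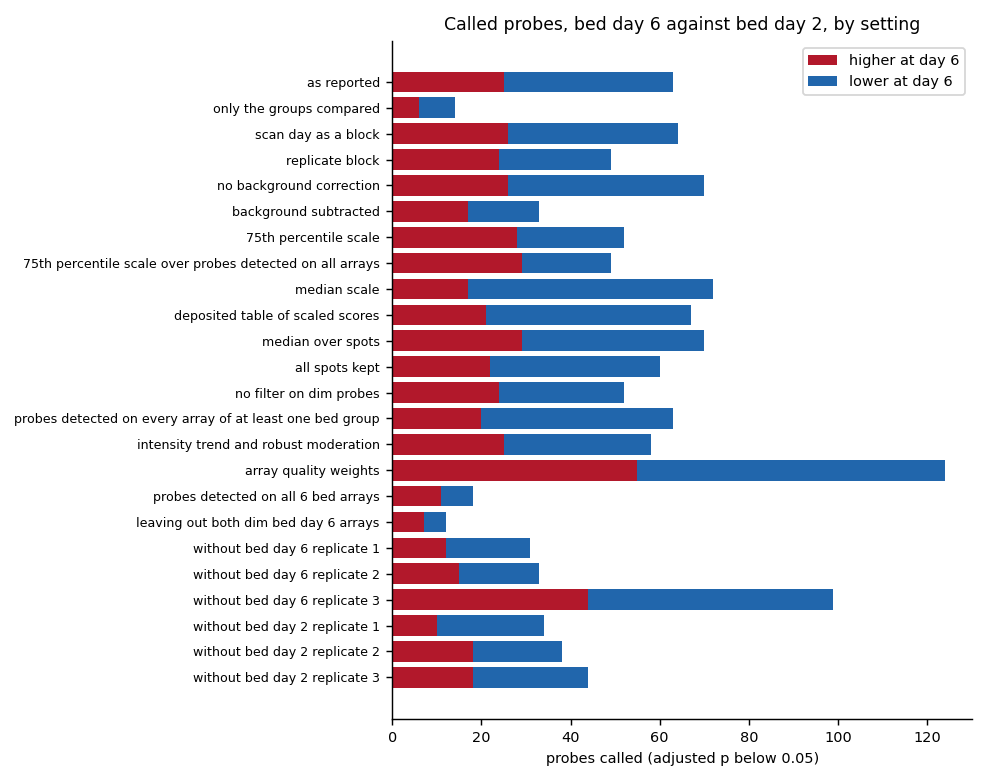
Number of probes called between the wound bed at day 6 and at day 2 (horizontal axis, stacked bars from 0, higher at day 6 in red and lower in blue) under each processing setting (vertical axis). The count was 63 as reported and ran from 12 without both dim day 6 arrays to 124 with array quality weights.

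Brightness divided the called probes into those bright on all 6 bed arrays, at only 1 day, or on some arrays of each day. Of the 25 rises, 12 were brighter than the blank spots on all 6 bed arrays, with a median change of 1.72 (1.23 to 3.83) and median levels of 13.48 at day 6 and 10.98 at day 2. Another 7 were below that limit on every day 2 array. Of these, 1 was bright on all 3 day 6 arrays, 3 on 2 arrays and 3 on 1 array. The probe bright on all 3 was at least 2.77-fold higher at day 6, where the bound sets the day 6 mean against, on each day 2 array, the higher of the lowest signal counted as bright and the signal of the probe itself. The remaining 6 were bright on some arrays of each day. Of the 38 falls, 9 were bright on all 6 arrays, with a median change of -1.56 (-1.28 to -3.04) and median levels of 11.93 at day 6 and 13.56 at day 2. Another 14 were below the limit on every day 6 array. For 11 of these, all bright on the 3 day 2 arrays, a bound could be given, at least 1.08-fold to 2.65-fold lower at day 6. The remaining 15 falls were bright on at least 1 array of each day but not on all 6. Over all 1687 probes, 1 was bright on all 3 day 6 arrays and on no day 2 array, and 46 were bright on all 3 day 2 arrays and on no day 6 array. Fewer probes of any kind were bright on day 6 replicates 2 and 3, and the part of this in the counts was not tested. Among the 378 probes bright on all 6 bed arrays, tested alone, 18 were called, 11 higher and 7 lower at day 6.

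**Figure D2:**
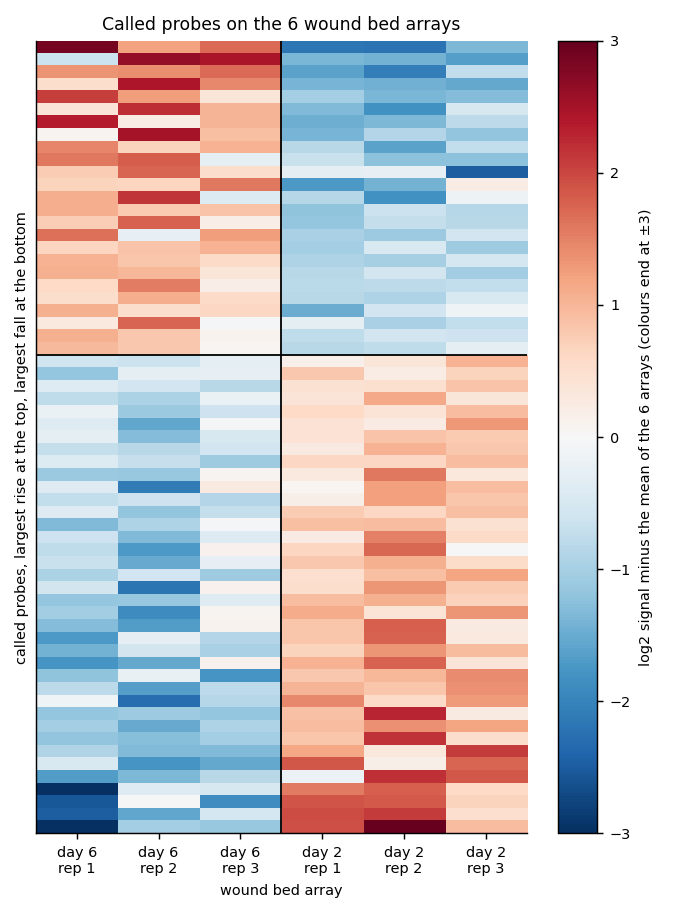
The 63 called probes (rows, largest rise at the top, largest fall at the bottom) on the 6 wound bed arrays (columns, day 6 left, day 2 right). Colour is the log2 signal minus the mean of the 6 arrays. The 25 rises are above the horizontal line, and day 6 replicate 3 has the smallest median changes from the day 2 mean, 1.59 for the rises and -1.46 for the falls.

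The size of the change differed between the day 6 arrays. Measured from the day 2 mean, the median of the 25 rises was 1.79, 2.29 and 1.59 on day 6 replicates 1, 2 and 3. For the 38 falls it was -1.83, -2.08 and -1.46. Replicate 3 showed the smallest change in both sets. It lay on the day 6 side of the midpoint between the group means for 22 of the 25 rises and 31 of the 38 falls, while replicates 1 and 2 did so for 24 rises each and for 38 and 37 falls. The probes were called from these same arrays, and each mean includes the array itself. Both favour high counts, so the counts are descriptions.

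Among the called probes, those that rose or fell most were named by a rule that took the 2 largest on each side whose arrays did not overlap and that were bright on at least 1 array of both days. The files do not pair them with genes. Probe M200000353 rose most. Its log2 signal was 14.55, 12.89 and 13.39 on the 3 day 6 arrays, against 9.53, 9.47 and 10.33 on the 3 day 2 arrays. Every day 6 array lay above every day 2 array, with a difference of 3.83 (SE 0.48, limma adjusted p = 6.7e-05), a 14.3-fold rise. It was called in all 23 other settings, with an adjusted p of at most 0.0214. Its difference was 5.03 on scan day 2 and 3.24 on scan day 3. It was no brighter than the blank spots on any array of unwounded skin. At day 15 it read 11.24, 13.62 and 13.09 in the bed.

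Probe M200000486 had the next rise. It read 11.67, 14.97 and 14.78 at day 6, against 10.96, 10.90 and 10.67 at day 2. The 3 day 2 arrays were close together, and 2 of the 3 day 6 arrays were far above them while replicate 1 was little higher. The difference was 2.96 (SE 0.80, limma adjusted p = 0.0314), or 7.8-fold. On scan day 2 it was 0.71 and on scan day 3 it was 4.09. The call was lost in 9 of 23 settings. Among these were the fits without day 6 replicate 2 or 3 (adjusted p = 0.139 and 0.0808) and without day 2 replicate 1, 2 or 3 (0.0689, 0.0732 and 0.0782), and without both dim day 6 arrays the difference was 0.83 (adjusted p = 0.737). At day 15 the bed read 10.35, 13.71 and 10.91.

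Probe M200001046 had the largest fall. It read 7.86, 10.74 and 10.61 at day 6, against 13.69, 14.97 and 12.68 at day 2. The lowest day 2 array was above the highest day 6 array, and on day 6 replicate 1 the probe was no brighter than the blank spots, so the size of the fall rests in part on a signal at their level. The difference was -4.04 (SE 1.16, limma adjusted p = 0.0435). This call was lost in 9 of 22 settings (adjusted p from 0.00379 to 0.135), among them the fits without day 6 replicate 1 or 2 (0.135 and 0.0633) or day 2 replicate 1 or 2 (0.0946 and 0.133). Probe M200001200 read 11.37, 12.28 and 13.30 at day 6, against 15.79, 15.94 and 14.33 at day 2. The groups did not overlap, and on 2 of the 3 day 2 arrays at least 50% of its spots read 65000 or more, near the top of the scanner's range of 65535, so its day 2 level may be understated there. The difference was -3.04 (SE 0.67, limma adjusted p = 0.0103), an 8.22-fold fall. The call was lost in 1 of 23 settings, without day 6 replicate 1 (adjusted p = 0.0571). Both falling probes were also bright in unwounded skin, at 14.51 ± 0.20 for M200001046 and 14.85 ± 0.20 for M200001200 (SD, n = 3). At day 15 the bed replicates 1, 2 and 3 read 14.55, 8.01 and 8.51 for M200001046 and 14.14, 11.51 and 10.44 for M200001200, so replicate 1 was at the day 2 level of the first and near it in the second.

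**Figure D3:**
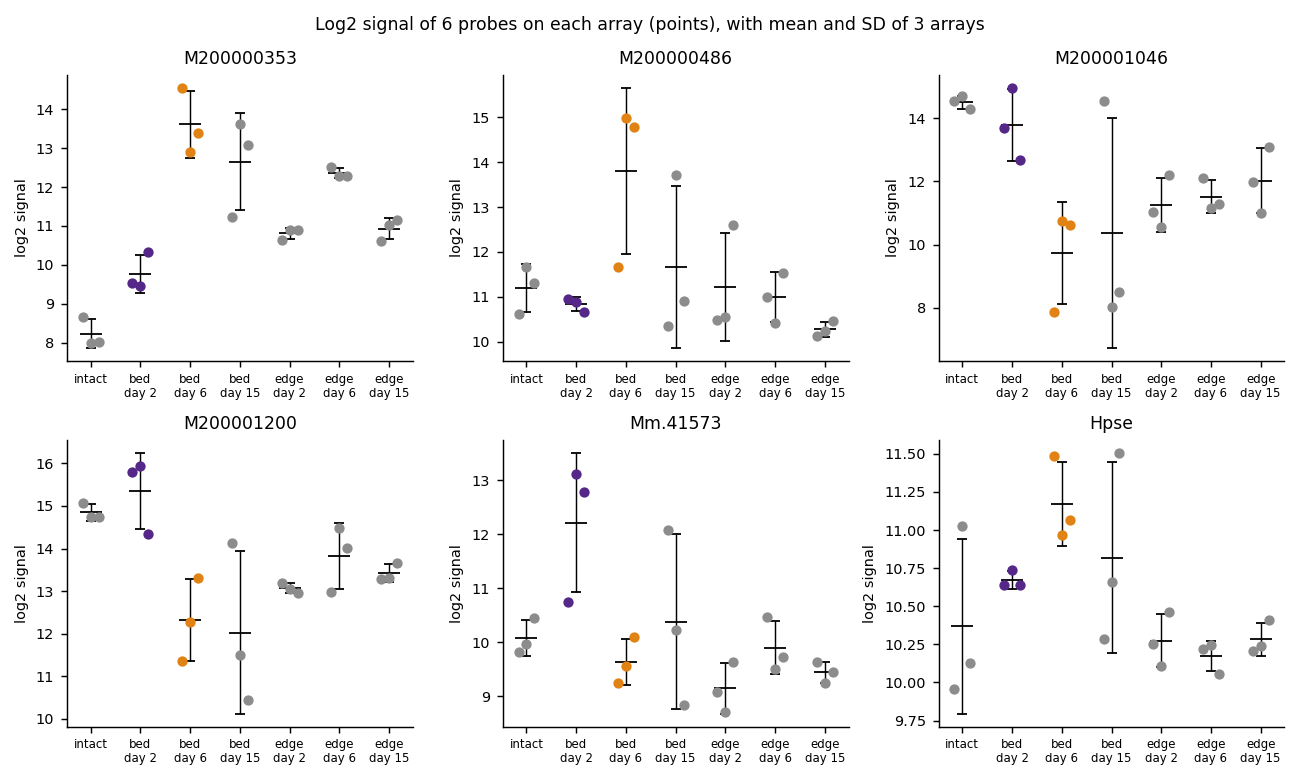
Log2 signal (vertical axis) of 6 probes in the 7 groups (horizontal axis). Points are single arrays, the dash and bar give the mean and SD of 3 arrays, and day 6 and day 2 of the bed are in orange and purple. M200000353 and M200000486 were higher at day 6, and M200001046, M200001200 and Mm.41573 were lower. The day 6 and day 2 arrays of the bed do not overlap in any of the 6. The choice of the called probes required or favoured this, and it held for 26.8% of all tested probes. Hpse was not called, and Fbln1, whose arrays overlap, is not shown.

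Of the 75 probes with a public identifier, 43 were tested and 1 was called, against 6.47% of all tested probes. It was the probe for UniGene cluster Mm.41573, which is given here after its values were seen. It read 9.24, 9.57 and 10.10 at day 6, against 10.74, 13.12 and 12.79 at day 2. The lowest day 2 array, replicate 1, was not far above the highest day 6 array. The difference was -2.58 (SE 0.62, limma adjusted p = 0.0170), and the probe was bright on 1 of 3 day 6 arrays and on all 3 day 2 arrays. The call was lost in 7 of 22 settings, including without day 6 replicate 1 or 2 (adjusted p = 0.0607 and 0.0589) or day 2 replicate 2 or 3 (0.0842 and 0.0636). Unwounded skin, at 10.08 ± 0.33, was nearer to the bed of day 6. Of the 43 tested probes with a public identifier, 10 had arrays that did not overlap (23.3%), close to the share over all probes given above.

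The 3 probes with a gene symbol gave no call. Hpse, which encodes heparanase, the enzyme that cuts heparan sulfate chains, read 11.49, 10.97 and 11.06 in the bed at day 6, against 10.64, 10.74 and 10.64 at day 2. All day 6 arrays were above all day 2 arrays, but the difference of 0.50 (SE 0.32, 95% interval -0.17 to 1.17, limma adjusted p = 0.348) did not pass the threshold, and it did so in none of 23 other settings. Fbln1, the gene of the matrix protein fibulin-1, read 10.57, 8.91 and 11.35 at day 6, against 9.84, 9.69 and 9.87 at day 2. Its day 6 arrays lay on both sides of day 2, with a difference of 0.47 (SE 0.51, 95% interval -0.59 to 1.54, limma adjusted p = 0.585). The intervals are wide enough to hold a change of 2-fold in each gene. Ndst3, an enzyme that modifies heparan sulfate during synthesis, did not exceed the blank spots on the 6 bed arrays and was not tested.

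Fewer probes were called in the wound edge over the same interval. Of the 974 probes 6 were called between edge day 6 and edge day 2 (0.616%), 5 higher and 1 lower (5 and 2 after scaling to the 75th percentile, 4 and 2 when that was taken over the bright probes). The median absolute difference over all probes was 0.24 in the edge and 0.52 in the bed. At an unadjusted p below 0.05 there were 51 probes (5.24%) in the edge and 239 in the bed. These counts used a spread shared by all groups. Taking the spread from the compared arrays alone gave 5 calls in the edge and 14 in the bed. The probes at an unadjusted p below 0.05 were then 61 in the edge and 183 in the bed. The gap in calls between the tissues was thus smaller with that spread. The bed differences were taken between bed arrays only. The edge arrays still entered the bed calls through the shared spread, the normalization and the choice of tested probes. In the edge arrays the 25 probes that rose in the bed had a median difference of 0.18. Of these, 17 were above 0 (68.0%), against 50.8% of all tested probes. The 38 that fell in the bed had a median edge difference of 0.05, with 23 above 0 (60.5%). The edge difference was smaller than the bed difference for all 63, which the choice of probes with large bed differences favours, and none of the 63 was called in the edge. Without edge day 2 replicate 3, which had 544 bright probes, 10 were called in the edge. With array quality weights, chosen after seeing the data, 53 were called in the edge (23 higher, 30 lower) and 124 in the bed.

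**Figure D4:**
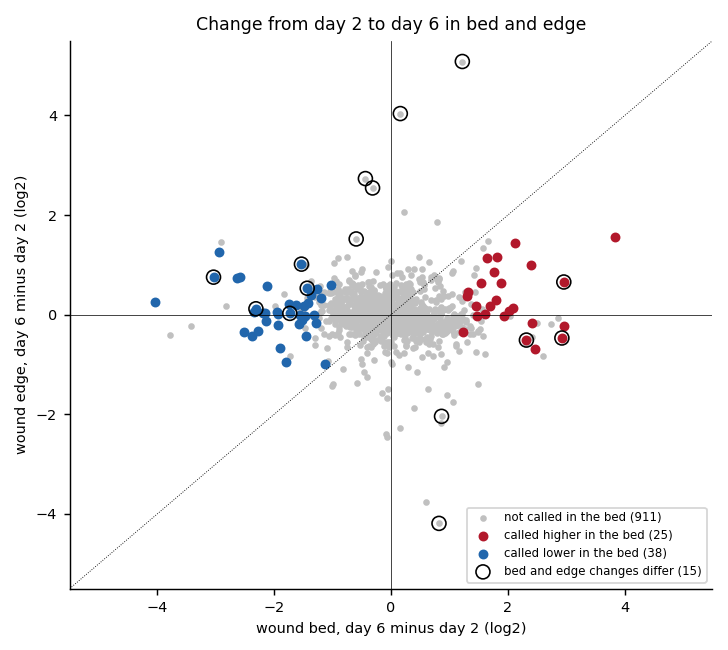
Log2 difference of day 6 minus day 2 in the wound bed (horizontal axis) and in the wound edge (vertical axis) for the 974 tested probes, with the dotted line marking equal change. Probes called higher (25, red) or lower (38, blue) in the bed have median edge differences of 0.18 and 0.05. Single probes lie further from 0, such as M200000353 at 1.55 and M200000717 at -0.99. The 15 circled probes differ between bed and edge.

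Whether the change differed between the tissues was tested directly. The bed change minus the edge change was called for 15 probes (1.54%), with sizes of 1.76 to 5.01 on the log2 scale, 5 of them above 0 and 10 below. The 75th percentile over the bright probes gave 6 and 4, with the median of all probes at 0.39 against -0.09 as reported, and the deposited scores gave 1 and 11. None of the 15 was called in both tissues. The estimates had opposite signs in 12, with 4 above 0 in the bed and 8 below 0 there, which the choice of probes with a large difference favours. The bed had the larger of the 2 changes in 8 probes and the edge in 7. M200001200 was one of them. Its log2 signal was 12.98, 14.48 and 14.02 in the edge at day 6, against 13.20, 13.05 and 12.97 at day 2. The edge difference of 0.75 was set against -3.04 in the bed, and the difference between them was -3.79 (SE 0.95, limma adjusted p = 0.0474). This value rests on the bed day 2 level, which was near the top of the scanner's range on 2 of 3 arrays, so its size is not exact. M200000353 had a difference of 1.55 in the edge (95% interval 0.54 to 2.56, limma adjusted p = 0.359) and of 3.83 in the bed, and the gap of 2.28 did not pass the threshold (limma adjusted p = 0.103). Nor did those of M200000486, M200001046 and Mm.41573 (3.19, -4.30 and -3.33, limma adjusted p = 0.165, 0.180 and 0.0571). With 1 of the 12 arrays left out, 6 to 20 probes were called, with 6 without edge day 6 replicate 1 or 2, 7 without bed day 2 replicate 1 or 2 or without edge day 2 replicate 2, 8 without bed day 2 replicate 3 and 9 without bed day 6 replicate 2. No edge array was scanned on scan day 3, and with scan day as a block 13 were called.

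The called probes were followed into the later bed. For the 38 probes that fell, the mean of the bed at day 15 was nearer to the day 6 than to the day 2 level in 33 (86.8%), against 56.4% of all tested probes. For the 25 that rose this held for 13 (52.0%). The day 15 level of the rises lay a median of 0.97 above day 2, where day 6 lay 1.88 above it, and the median for the falls was -1.43 relative to day 2, where that of day 6 was -1.77. The day 15 arrays differed here. Replicates 1, 2 and 3 lay a median of 0.75, 1.33 and 1.19 above the day 2 level for the rises, and their medians for the falls were -0.66, -1.74 and -1.71 relative to day 2. Without replicate 1, 2 or 3 in turn, 18, 11 and 12 of the 25 rises and 36, 34 and 28 of the 38 falls were nearer to day 6, against 584, 546 and 465 of the 974 tested probes. The called probes were chosen for the distance between day 6 and day 2, so these shares are descriptions.

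In unwounded skin the probes that rose were mostly nearer to the day 2 level. One of the 3 skin arrays, replicate 2, was dim, with 53.8% of its blank spots above the median probe, and its part was not tested. The skin mean was nearer to day 2 than to day 6 in 22 of the 25, against 595 of all 974 tested probes, and in 9 of them (36.0%) it was beyond day 2, against 42.4% of all tested probes. It was in no case above day 6. For the 38 that fell, the skin mean was nearer to day 2 in 22. It was nearer to day 6 in 16 (42.1%), against 38.9% of all tested probes. It lay between the day 6 and day 2 levels in 26, at or beyond day 6 in 6 and above day 2 in 6. Of the 38, 26.3% lay between on the day 6 side and 42.1% on the day 2 side, against 11.6% and 18.7% of all tested. Beyond day 6 and beyond day 2 lay 15.8% each, against 27.3% and 42.4% of all tested probes. The rising and falling probes were chosen for the distance between the bed of day 6 and of day 2. This favours a place between these levels for any other group, so the shares in this paragraph are descriptions. The edge mean at day 2 was nearer to the bed of day 6 than to the bed of day 2 in 27 of the 38 (71.1%), against 43.9% of all tested probes, and at edge day 6 the count was again 27. For the 25 rises, edge day 2 was nearer to bed day 6 in 4 and edge day 6 in 11.

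**Figure D5:**
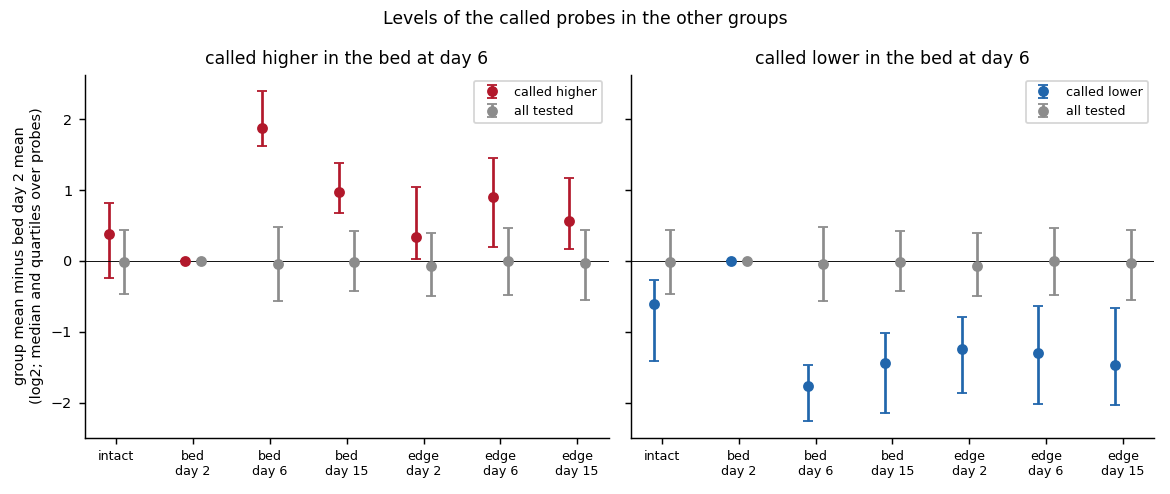
Group mean minus the bed day 2 mean (vertical axis, log2) in unwounded skin, bed and edge at each day (horizontal axis), for the 25 probes called higher (left panel, red) and the 38 called lower (right panel, blue) in the bed at day 6, with all 974 tested probes in grey. Points are medians over probes and bars run between the quartiles. Medians of the falling probes run from -0.61 in unwounded skin to -1.77 in the bed at day 6, and their choice for a high bed day 2 level favours values below 0.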

How the data were processed

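Total RNA (500 ng) from each sample was amplified with Cy3 label, and 1 array was used for it, per the labels' protocols. The authors deposited scanner output in which each spot has a linear intensity and a flag from 0 to 3 whose meaning is not given in the sources used here. Per the file headers, images taken at 532 nm were quantified with software of version 4.1. The authors also deposited a table of scaled scores per probe. These were rebuilt from the scanner values as the log of the mean signal, with a median of 1 and an SD of 0.2 per array, to within 0.00119, which settles scale, centring and direction. Its column medians ran from 0.999 to 1.00.

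Intensities were corrected with normexp (offset 50, signal mean and local background median) in limma 3.58.1 (R 4.3.3). Log2 values were averaged over the 8 spots of a probe, leaving out flag 1, and quantile normalized. This assumes equal distributions of signal. A probe was bright on an array when above the 95th percentile of its 168 blank and 160 empty spots. The 974 probes bright on at least 3 of 21 arrays were tested and 713 were not. One mean per group was fitted to all 21 arrays (14 residual degrees of freedom), with two-sided moderated tests and Benjamini-Hochberg adjustment over the 974 probes in each of 3 comparisons. The 3 arrays of a group limit the precision.

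Gene lists and cell type markers could be matched to only 3 probes, through a RefSeq table of assembly GRCm38.p6, so no list result is given. The comparison and lists were chosen with earlier results of these data known. Named probes follow the rule in the report, and Mm.41573 was added. Each of the 21 arrays had a slide to itself, so no slide block was fitted. The fits were tested on simulated data. These had the same spread in all groups for each probe, so they do not cover the unequal spread of the bed groups. Alternatives covered background correction, scaling, spot summary, filters, blocks, moderation and each array left out.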

Additional observations from a re-analysis of the deposited data

Results flagged for a closer look

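The change from day 2 to day 6 differed between bed and edge, by the test of the difference itself, in 15 of the 974 tested probes. Among the named probes this held for M200001200, with a bed change minus edge change of -3.79 on the log2 scale. Its bed day 2 level was near the top of the scanner's range on 2 of 3 arrays, so this size is not exact. No group had enough arrays for a search for single deviating arrays, as each held 3.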

How the results depend on the processing

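The count of called probes in the bed stayed within 1.5 times of 63 in 13 of 23 settings. It was 14 with the spread taken from the 6 bed arrays alone, 33 with plain background subtraction, and 31 to 99 with 1 array left out. The settings chosen after seeing the data were array quality weights (124, with day 6 replicate 2 at a weight of 0.178), the probes bright on all 6 bed arrays (18, of 378 tested) and leaving out both dim day 6 arrays (12). For the edge the count of 6 was 3 among the probes bright on every array of at least 1 bed group, 53 with array weights, and 4 to 10 with 1 array left out. For the difference between bed and edge the count of 15 was 8 with no filter on dim probes, 73 with array weights, and 6 to 20 with 1 array left out. The cause of these shifts was not tested, except that other numbers of probes or fewer arrays were used where the setting says so. With the replicate block, 49, 5 and 11 probes were called in bed, edge and their difference, and M200001046 was not (adjusted p = 0.0594). The replicate numbers showed no pairing of the samples. Deviations of same-numbered bed arrays correlated at -0.08, -0.02 and -0.10, and no day 6 array correlated best with its own number. Deviations from a mean of 3 arrays are tied to each other, so these values cannot exclude a pairing. No called named probe changed direction in any setting. Fbln1, which was not called, had differences of -0.06 to 1.16. The 14 falls no brighter than the blank spots on every day 6 array have at most a bound.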

Other observations

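The wound edge had a few large changes of its own between day 2 and day 6. The 6 probes called there had differences of 5.08, 4.04, 2.73, 2.54, 1.52 and -4.19 on the log2 scale (limma adjusted p from 6.62e-08 to 0.0475). In the bed the same probes had 1.22, 0.16, -0.44, -0.32, -0.60 and 0.82, and none was called (limma adjusted p from 0.0739 to 0.863). None of the 6 could be given a gene symbol.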
